A study of Mus musculus with 4 samples.

Results

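The Ifi200 genes, also named the PYHIN family, were described in mouse B lymphocytes of 2 genotypes with and without stimulation. The members were chosen by family name from 8 gene symbols: Ifi202b, Ifi203, Ifi204, Ifi205, Ifi208, Mndal, Pyhin1 and Aim2. That choice was made with signals of these same arrays in view, so every value below is a description and no test was run on it. Of the 8, 6 had a probe set mapped to exactly 1 gene symbol, out of 22180 genes with such a probe set in the whole series; Ifi203 and Pyhin1 had none. Each of the 6 had a single such probe set, so choosing the brightest per gene decided nothing here.

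Cells were sorted by B220 (CD45R), a B cell surface protein, from suspensions of spleens, thymi and lymph nodes of mice on the C57BL/6 background. Wild-type mice were compared with Tilcara mice, which carry a mutation of PKCbeta on that background; the labels give neither the position of the mutation nor the age of the mice. Stimulated cells received 10 ng/mL of the phorbol ester PMA and 1 µM of the calcium ionophore A23187 for 4 hours, and the other cells received neither. The 4 groups (wild type non-stimulated, wild type stimulated, Tilcara non-stimulated, Tilcara stimulated) had 1 array each, and the labels do not say how many mice stood behind an array. A difference is therefore a difference between single arrays, with no replicate check. The series title puts the question as a comparison of the mutant with wild type.

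PYHIN genes are induced by interferons in many leukocytes and lie side by side in a cluster. Most of their proteins join an N-terminal pyrin domain, which binds other pyrin domains, to a HIN domain, which binds DNA. AIM2 senses DNA in the cytosol and recruits the adaptor ASC, encoded by Pycard, to activate caspase-1. The protein of Ifi202b has HIN domains but no pyrin domain and is known to counteract AIM2. Ifi204 is related to human IFI16, which signals through STING.

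The signal of a probe set is given in log2 units, after RMA, so 1 unit is 2-fold. The signal floor was set at 3.83, the median of all values of probe sets with 1 symbol, and 12456 genes reached it in at least 1 array; a fold is approximate wherever a signal lies below it. Of the 6 measured members, Ifi202b, Ifi208, Mndal and Aim2 reached the floor in at least 1 array, while Ifi204 and Ifi205 stayed below it in all 4. Array medians ran from 3.73 to 3.79, and no pair of arrays shared more than 0.709% of its values. All 8 measured B cell markers, among them Cd79a, Ms4a1 and Pax5, were above the floor in all 4 arrays. The summed linear signal of those 8 markers was 14550 in non-stimulated and 3456 in stimulated wild type, and 14338 and 4599 in Tilcara. A signal above the floor does not measure purity. Of 8 NK cell markers, 6 also passed it in non-stimulated wild type and 7 in non-stimulated Tilcara. Fewer cells of a type and less RNA per cell cannot be told apart in such samples.

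The starts of the family's genes are shown first, because the members differ in a sequence that interferon-activated factors are known to recognise. The sequences are RefSeq promoter windows of mouse build GRCm38.p6, 250 bases before to 50 after a listed transcript start, and 6 of the 8 members have one (Ifi204 and Pyhin1 are not matched by symbol in that table). Capitals mark GAAANNGAA, the core of the interferon-stimulated response element, which was searched on both strands. Each line gives 40 bases before and 20 after the match, 5′ to 3′ along the gene.
Ifi208: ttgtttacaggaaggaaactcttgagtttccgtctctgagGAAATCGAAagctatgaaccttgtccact
Ifi213: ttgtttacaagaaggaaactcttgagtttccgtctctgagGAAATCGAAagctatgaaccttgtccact
Mndal: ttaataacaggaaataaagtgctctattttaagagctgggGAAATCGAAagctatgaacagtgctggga
Ifi203: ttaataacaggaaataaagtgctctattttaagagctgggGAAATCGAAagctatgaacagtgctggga
Ifi205: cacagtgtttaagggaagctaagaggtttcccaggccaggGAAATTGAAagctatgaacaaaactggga
They lie on the plus strand at chr1:173673567-173673635 (Ifi208) and on the minus strand at chr1:173599317-173599385 (Ifi213, a neighbour in the cluster), chr1:173880195-173880263 (Mndal), chr1:173942499-173942567 (Ifi203) and chr1:174031861-174031929 (Ifi205). Over these 69 bases Mndal and Ifi203 are identical, Ifi208 and Ifi213 differ at 1 base, and Ifi208 and Mndal differ at 26.

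The windows of Ifi202b and Aim2 hold no GAAANNGAA. In that of Ifi202b the capitals mark its only match among the motifs searched, a GAS element (TTCNNNGAA, bound by STAT factors) that starts 148 bases before the transcript start.
Ifi202b: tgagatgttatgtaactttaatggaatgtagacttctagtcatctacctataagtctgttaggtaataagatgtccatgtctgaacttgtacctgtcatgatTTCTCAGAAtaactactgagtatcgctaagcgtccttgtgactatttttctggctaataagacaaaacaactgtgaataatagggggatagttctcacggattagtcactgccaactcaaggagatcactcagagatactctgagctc
Aim2: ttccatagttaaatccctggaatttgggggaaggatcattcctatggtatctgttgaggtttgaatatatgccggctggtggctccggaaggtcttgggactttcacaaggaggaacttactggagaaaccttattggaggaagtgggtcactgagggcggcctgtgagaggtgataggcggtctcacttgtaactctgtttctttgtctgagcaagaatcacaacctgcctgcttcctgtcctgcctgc
The first is the minus strand of chr1:173982845-173983094 and the second the plus strand of chr1:173420354-173420603, both without the bases after the start.

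Across the cluster, GAAANNGAA was present in the windows of 9 of the 12 genes that have one, and of 4 members (Ifi208, Mndal, Ifi203 and Ifi205), beside 8.56% of all 32851 windows in the table. The GAS letters were in 8.30% of all windows and, in the cluster, in that of Ifi202b. The AP-1 site TGANTCA stood in windows of 3 cluster genes (Mndal, Ifi203 and Ifi209) and in 7.81% of all windows. The NF-kB core GGGNNNTCC stood in a second window of Ifi203 and in 17.8% of all, and the NFAT core TGGAAAA in no cluster window and in 6.73% of all. A GAS match can share letters with a GAAANNGAA match, and no cluster window held both. A match describes letters in a window and does not show a bound site.

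Ifi202b was the member that differed most between the arrays. It read 2.20 in non-stimulated wild type, 8.58 in stimulated wild type, 1.65 in non-stimulated Tilcara and 6.35 in stimulated Tilcara. Both non-stimulated arrays were below the floor and both stimulated arrays above it, and stimulated wild type was the highest of the 4. In wild type the signal was 83.3-fold higher after stimulation, a log2 difference of 6.38 that ranked 3rd from the top among 12456 genes. In Tilcara it was 25.9-fold higher (4.69, ranked 12th). Both ranks rest on non-stimulated signals below the floor. With such values raised to the floor in every gene, the differences were 4.75 (26.8-fold, ranked 9th) and 2.52 (5.72-fold, ranked 147th).

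Ifi208, which RefSeq also lists under the pyrin domain name Pydc3, was lower after stimulation. Its signals were 7.28 in non-stimulated and 3.01 in stimulated wild type, and 8.42 in non-stimulated and 5.60 in stimulated Tilcara. The order from the top was thus non-stimulated Tilcara, non-stimulated wild type, stimulated Tilcara and, below the floor, stimulated wild type. Stimulation gave 19.3-fold lower signal in wild type (log2 difference −4.27, ranked 46th from the bottom) and 7.07-fold lower in Tilcara (−2.82, ranked 249th). Raised to the floor, the wild-type difference was −3.45 (ranked 118th).

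Aim2, the cytosolic DNA sensor, read 7.42 and 6.12 in wild type without and with stimulation, and 7.64 and 6.41 in Tilcara. Both stimulated arrays were lower than both non-stimulated arrays. They were 2.45-fold lower in wild type (−1.30) and 2.35-fold lower in Tilcara (−1.23).

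Mndal, an interferon-inducible member with a pyrin and a HIN domain, read 9.79 and 9.05 in wild type and 9.97 and 8.82 in Tilcara. Its stimulated signals were again the lower ones, by 1.67-fold in wild type (−0.74) and by 2.23-fold in Tilcara (−1.16). Of the members that reached the floor it had the narrowest range over the arrays, 1.16.

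Ifi204 and Ifi205 gave no usable contrast. Ifi204 read between 1.43 and 1.82 over the 4 arrays. Ifi205, which is known to affect expression of the adaptor ASC in macrophages, read 2.74 and 3.23 in wild type and 2.41 and 2.39 in Tilcara, all below the floor. Ifi204 is also named by a probe set shared with Ifi211, which read 4.91 and 4.48 in wild type and 5.07 and 4.91 in Tilcara; signal of both genes cannot be separated in it.

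Ifi203 has no probe set of its own. The probe set that names it together with its pseudogene Ifi203-ps and a further locus read 8.85 in non-stimulated and 8.22 in stimulated wild type, and 8.80 and 7.92 in Tilcara. Stimulated signals were lower in both genotypes, by 0.63 and 0.88 on the log2 scale. Pyhin1 is listed by RefSeq as another name of Ifi209, and the probe set for that gene carries the symbol Ifi209, so its values stand with the neighbours below.

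**Figure D1:**
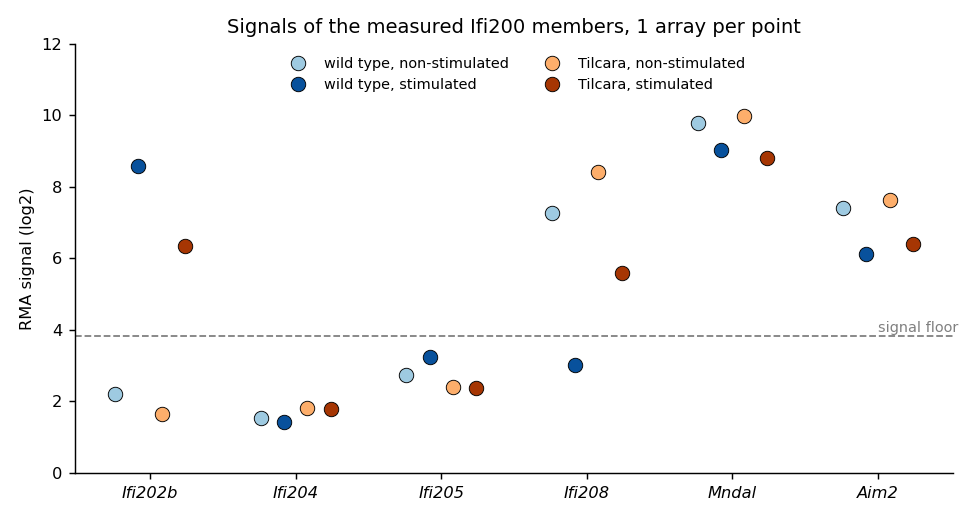
RMA signal (log2, vertical axis) of the 6 measured members, 1 point per array coloured by genotype and stimulation, with the signal floor of 3.83 as a dashed line. Ifi202b is above the floor only in the stimulated arrays (8.58 and 6.35), Ifi208 is lowest in stimulated wild type (3.01), and Ifi204 and Ifi205 lie below the floor throughout.

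By count, 1 of the 6 measured members (Ifi202b) was at least 2-fold higher after stimulation in wild type, where 13.4% of all genes above the floor were, and 2 (Ifi208 and Aim2) were at least 2-fold lower, where 15.9% were. In Tilcara the same comparison gave 1 higher (Ifi202b), beside 11.9% of all genes, and 3 lower (Ifi208, Aim2 and Mndal), beside 14.3%. The median difference of the 6 was −0.43 in wild type and −0.59 in Tilcara, against 0.03 and 0.04 over all genes. These medians hold 2 members below the floor, and Ifi202b differed in the opposite direction to Ifi208, Aim2 and Mndal.

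The other genes of the cluster were read from the same arrays. RefSeq places 14 PYHIN genes, a pseudogene included, on chromosome 1, from Aim2 at one end to Ifi205 at the other, with 5 other genes between them, and 11 had a probe set of 1 symbol. Beside the members, Ifi209, Ifi213 and Ifi214 reached the floor, and Ifi207 and Ifi203-ps did not; Ifi206 and Ifi211 had no such probe set. These 5 are the measured genes among 19 further PYHIN and linked symbols that were searched. Ifi209 (also named Pyhin1 or Ifix) read 10.00 and 6.09 in wild type and 10.28 and 6.83 in Tilcara without and with stimulation. Ifi213 (also named Pydc4) read 7.14 and 4.18 in wild type and 7.53 and 4.79 in Tilcara. Ifi214 read 7.40 and 4.30 in wild type and 7.39 and 5.59 in Tilcara. In each of these 3 genes both stimulated arrays were lower than both non-stimulated arrays.

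In cluster order, a run of 5 measured genes from Aim2 through Ifi214, Ifi213 and Ifi209 to Ifi208 was at least 2-fold lower after stimulation in both genotypes. Their wild-type differences were −1.30, −3.10, −2.96, −3.90 and −4.27, and their Tilcara differences −1.23, −1.80, −2.74, −3.45 and −2.82. Toward the other end lay Mndal, with the smaller differences given above, and Ifi202b, the only cluster gene above the floor that was higher when stimulated. Of the 7 cluster genes above the floor, 6 were lower after stimulation in wild type and the same 6 in Tilcara. At least 2-fold lower were 5 in wild type and 6 in Tilcara, beside 15.9% and 14.3% of all genes above the floor. The nearest 5 measured genes on each side of the cluster, Fcer1a, Olfr418, Mptx2, Ackr1 and Cadm3 before it and Olfr433, Olfr432, Olfr430, Olfr429 and Olfr427 after it, all stayed below the floor, with a highest signal of 3.43.

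**Figure D2:**
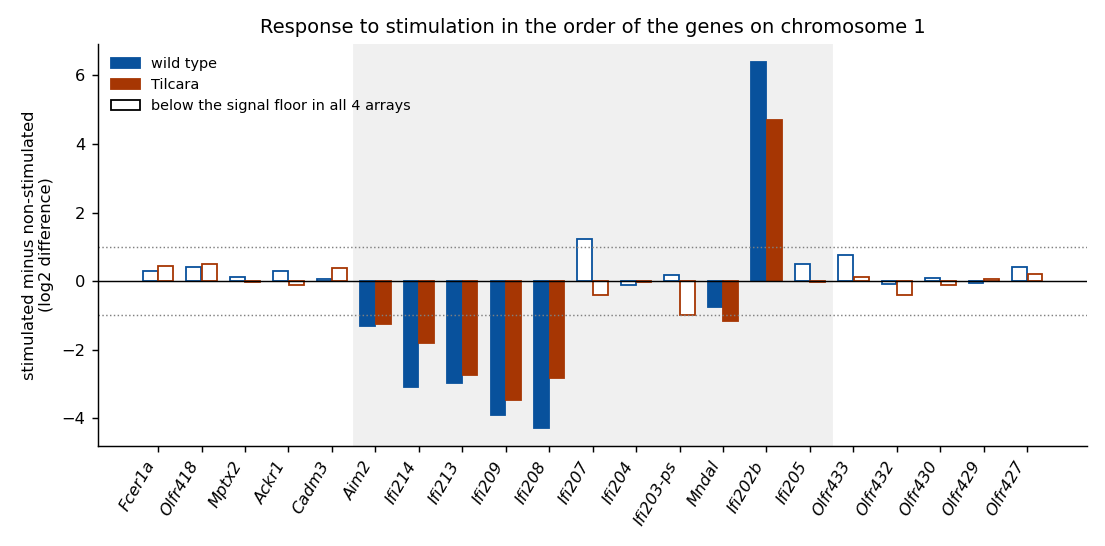
Log2 difference of stimulated minus non-stimulated signal (vertical axis) in wild type (blue) and Tilcara (brown) for the measured genes in chromosomal order, with the PYHIN cluster shaded, dotted lines at a difference of 1 in either direction, and open bars for genes below the floor in all 4 arrays. Aim2 to Ifi208 point down in both genotypes (−1.30 to −4.27 in wild type), Ifi202b points up (6.38 and 4.69), and flanking genes show only open bars.

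The upstream windows of some of these genes resemble each other. Over the 250 bases before the start, those of Ifi214 and Ifi209 were 94.4% identical, of Mndal and Ifi203 89.3%, and of Ifi207 and Ifi211 85%. Ifi206, Ifi208 and Ifi213 formed a trio, with 87.9% between Ifi213 and Ifi208, 86.2% between Ifi206 and Ifi208 and 75.6% between Ifi206 and Ifi213, against a median of 47.9% over 89 pairs of windows from different genes. Genes of such likeness may also share transcript sequence, and whether probes of 1 gene also bound RNA of another was not tested.

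Without stimulation, Tilcara and wild type were close for most members. Ifi208 was 2.19-fold higher in Tilcara (a log2 difference of 1.13), 1 of 6 measured members, beside 0.425% of all genes at least 2-fold higher. No member was at least 2-fold lower, beside 0.658% of all genes. Aim2 was higher by 0.22 and Mndal by 0.19, and Ifi202b was lower by 0.54 between 2 signals below the floor. The median of the 6 was 0.21, against 0.02 over all genes.

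After stimulation the genotypes differed in both directions. Ifi208 was 6.00-fold higher in Tilcara (2.58, ranked 6th from the top of 12456 genes), the 1 member at least 2-fold higher beside 0.955% of all genes. Ifi202b was 4.70-fold lower in Tilcara (−2.23, ranked 10th from the bottom), the 1 member at least 2-fold lower beside 0.747% of all genes. As stimulated wild type read Ifi208 below the floor, its difference was 1.77 (3.40-fold, ranked 13th) with values raised to the floor. Ifi202b, above the floor in both of these arrays, then ranked 8th from the bottom. Aim2 differed by 0.28 and Mndal by −0.23. The median of the 6 was 0.03, against 0.01 over all genes. Among the neighbours, Ifi214 was higher in Tilcara by 1.29, Ifi209 by 0.73 and Ifi213 by 0.61, so 5 of the 7 cluster genes above the floor had the higher signal in Tilcara and Ifi202b and Mndal the lower. At least 2-fold, 2 of the 7 were higher and 1 lower, beside 0.955% and 0.747% of all genes.

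**Figure D3:**
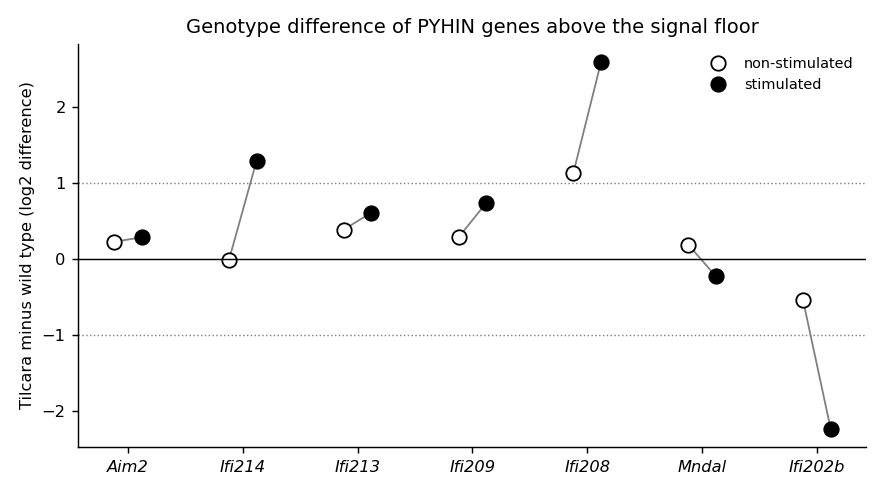
Tilcara minus wild type (log2 difference, vertical axis) for the 7 PYHIN genes above the floor, in chromosomal order, without stimulation (open) and with it (filled), a line joining both values of a gene. Ifi208 stands at 1.13 and 2.58 and Ifi202b at −0.54 and −2.23, while Aim2 stays at 0.22 and 0.28.

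The difference between the responses, Tilcara minus wild type, combines these values. It was 1.45 for Ifi208, the 1 member at 1 or more beside 2.32% of all genes, and −1.69 for Ifi202b, the 1 member at −1 or less beside 1.65%. With values raised to the floor it was 0.63 for Ifi208, no longer past 2-fold, and −2.23 for Ifi202b. The latter only repeats the difference between the stimulated arrays, because both non-stimulated Ifi202b signals were raised to the same floor. Aim2 had 0.06 and Mndal −0.42. Ifi214, a neighbour, had 1.30. The median of the 6 members was −0.18, against 0.0008 over all genes.

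**Figure D4:**
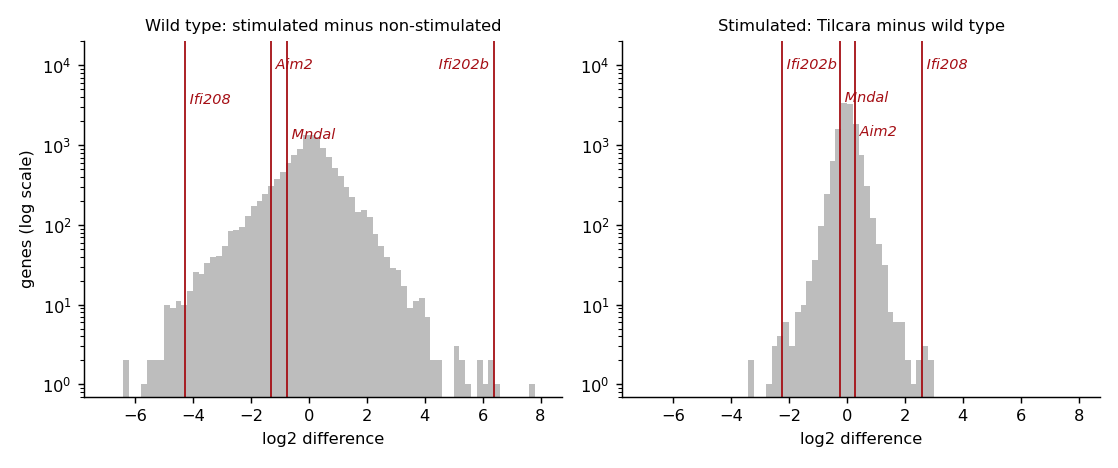
Number of genes (log axis) by log2 difference for the 12456 genes above the floor, for the wild-type response (left) and for stimulated Tilcara minus stimulated wild type (right), with the 4 members that reached the floor as red lines. Ifi202b lies at 6.38 on the left and −2.23 on the right, Ifi208 at −4.27 and 2.58, and Aim2 and Mndal lie within the bulk of genes in the right panel.

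Transcripts of other cells that could pass the sort were read beside these values, since myeloid cells also express PYHIN genes. Summed over 10 macrophage and monocyte markers, 8 of them above the floor in some array, the linear signal was 346 and 233 in wild type without and with stimulation and 239 and 269 in Tilcara, with Cd14 and Mertk below the floor throughout. Over 11 neutrophil markers, 5 of them above the floor in some array, it was 819 and 87.7 in wild type and 100 and 79.4 in Tilcara. By array, 5 and 0 of them reached the floor in wild type and 1 and 0 in Tilcara. Ngp, Camp, Ltf, Ly6g, Mmp8 and Retnlg were below the floor throughout. S100a8 led the neutrophil sum in non-stimulated wild type and was 36.5-fold lower, just below the floor at 3.81, in non-stimulated Tilcara. S100a9 came next, at 7.61 and 3.48 in wild type and 4.09 and 2.47 in Tilcara. The macrophage marker Lyz2 was likewise highest in non-stimulated wild type, at 5.99, and below the floor in the other arrays. Adgre1 (4.70), Itgam (4.10), Fcgr1 (3.92) and Ly6c2 (6.68, beside 6.49 in non-stimulated Tilcara) were also highest in that array. Of the macrophage and monocyte list, 6 markers reached the floor in non-stimulated wild type and 3 in each other array. Cd68, Csf1r and Ccr2 differed from this: Cd68 read 6.33 and 7.08 in wild type and 6.05 and 7.44 in Tilcara. Csf1r was also highest in stimulated Tilcara (3.94), and Ccr2 in non-stimulated Tilcara (3.90). Over 8 T cell markers, 7 above the floor in some array, the summed signal was 169, 107, 98.7 and 81.4 in the same order. By array, 6, 2, 2 and 1 of them reached the floor, and Cd8a did so in none. Over 7 dendritic cell markers, 5 above the floor in some array, the summed signal was 104, 95.5, 178 and 86.5. By array, 3, 3, 3 and 2 of them reached the floor, and Flt3 and Xcr1 did so in none. Klk1 was the marker behind the 178, at 2.75 in non-stimulated wild type and 6.41 in non-stimulated Tilcara. Over 8 NK cell markers, 7 above the floor in some array, the summed signal was 277, 130, 305 and 120. By array, 6, 2, 7 and 2 of them reached the floor, and Klrb1c did so in none. The part of such cells in the members' differences was not tested. Of the B cell markers, 7 of 8 were at least 2-fold lower after stimulation in each genotype.

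The proteins that act with AIM2 in the inflammasome were read from a list of 18 genes, of which 17 were measured and 12 reached the floor. In wild type 1 was at least 2-fold higher after stimulation and 8 were lower, and in Tilcara 1 and 7, with medians of −0.88 and −0.59. Over all genes the shares were 13.4% higher and 15.9% lower in wild type and 11.9% and 14.3% in Tilcara, and these stand beside the counts of each list that follows. The counts include genes with signals below the floor (Naip6 in all 4 arrays). With values raised to the floor they were 1 and 6 in each genotype, with medians of −0.52 in wild type and 0.0 in Tilcara. Over all genes so treated, the shares were 12.6% higher and 14.3% lower in wild type and 11.1% and 13.1% in Tilcara. These shares stand beside every later list count with values raised to the floor. List counts are out of all measured genes, while the shares leave out genes below the floor in all 4 arrays. The caspase gene Casp4 was higher, by 2.19 in wild type and 3.05 in Tilcara. Lower were Casp8 (−2.71 and −2.19), the NLR sensor gene Nlrc4 (−2.63 and −3.06) and the cytokine gene Il18 (−1.60 and −2.34). Nlrc4 lay below the floor in both stimulated arrays and Il18 in stimulated Tilcara. Raised to the floor, the differences were −2.07 and −2.03 for Nlrc4 and −1.60 and −1.63 for Il18. Pycard, which encodes the AIM2 adaptor, and Casp1, its effector, were named after their values were seen: Pycard differed by −1.18 and −0.96 and Casp1 by −0.88 and −1.07. The cytokine gene Il1b read 4.70 in non-stimulated wild type and 2.54, below the floor, in non-stimulated Tilcara; raised to the floor the difference was −0.87. The myeloid markers S100a8, S100a9 and Lyz2 were lower in the same array of Tilcara, as given above, and their part in the Il1b values was not tested. Raised to the floor, 2 of 11 neutrophil markers and 1 of 10 macrophage and monocyte markers were at least 2-fold lower there, beside 0.377% of all genes.

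Of 19 genes for DNA sensing and STING signalling, 17 were measured and 16 reached the floor. In each genotype 2 were at least 2-fold higher and 5 lower after stimulation, with medians of −0.11 in wild type and 0.16 in Tilcara. The higher genes were Mre11a and Polr3a in wild type and Xrcc5 and Cgas in Tilcara, where Cgas lay below the floor in all 4 arrays. With values raised to the floor, 1 was higher in Tilcara, and the medians were −0.11 in wild type and 0.0 in Tilcara. Sting1, the adaptor below IFI16-like sensors, was lower by 5.21 in wild type and 5.26 in Tilcara. Its stimulated signals lay below the floor, and raised to it the differences were −4.52 and −4.65. Unc93b1, which carries nucleic acid-sensing Toll-like receptors to endosomes, differed by −3.85 and −2.98, and Prkdc, a DNA-dependent kinase, by −2.95 and −2.72. Stimulated Prkdc was also below the floor, and raised to it the differences were −2.81 and −2.59. Tlr9, a receptor for DNA in endosomes, differed by −2.46 and −2.39. Samhd1, a nucleotide phosphohydrolase, differed by −2.59 in wild type and −1.06 in Tilcara and was higher in stimulated Tilcara than in stimulated wild type by 1.46.

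Of 20 interferon receptor and regulator genes, 18 were measured and 17 reached the floor. After stimulation 6 passed 2-fold upward and 8 downward in wild type, and 5 and 8 in Tilcara, with medians of −0.73 and −0.68. Ifng, for interferon gamma, was higher by 3.91 and 3.68, the feedback inhibitor Socs1 by 2.18 and 2.03 and Irf4 by 2.10 and 2.07. Irf2 was lower by 3.08 in wild type and 1.99 in Tilcara and the receptor chain gene Ifngr2 was 4.01-fold and 7.16-fold lower. The kinase gene Jak2 was lower in stimulated Tilcara than in stimulated wild type, at −1.55.

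Interferon-stimulated genes outside the family differed in both directions too. Of 46 listed, 40 were measured and 38 reached the floor, and in wild type 7 passed 2-fold upward and 17 downward, with 8 and 15 in Tilcara. The GTPase gene Iigp1 was higher by 5.22 and 4.87 and the chemokine gene Cxcl10 by 5.01 and 4.45. Raised to the floor, these were 3.59 and 3.27 for Iigp1 and 4.14 and 3.26 for Cxcl10. Herc6 was lower by 3.78 and 2.74 and Ddx58, for the RNA sensor RIG-I, by 3.62 and 3.84. Stimulated Herc6 lay below the floor, and raised to it the differences were −2.97 and −2.56. The median of the 40 was −0.51 in wild type and −0.53 in Tilcara. With values raised to the floor, 7 of the 40 were higher and 15 lower in wild type and 8 and 12 in Tilcara. The medians were then −0.27 and −0.37. Stimulated Tilcara was at least 2-fold above stimulated wild type for Trim30a (1.01). Rtp4 after stimulation read 2.93, below the floor, in wild type and 4.09 in Tilcara, and the difference was 0.25 with values raised to the floor. Without stimulation Tilcara was lower for Slfn5 (−1.09) and Ifit3 (−1.04).

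**Figure D5:**
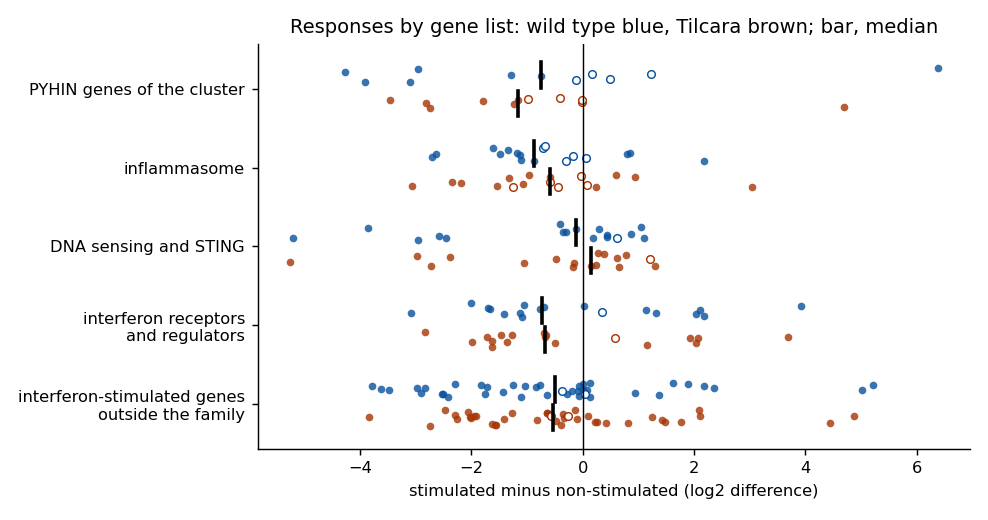
Log2 difference of stimulated minus non-stimulated signal (horizontal axis) for the 11 measured PYHIN genes and for 4 gene lists, 1 point per gene, wild type in blue and Tilcara in brown, open where a gene stayed below the floor, with a black bar at each median. Every list spreads to both sides of 0; the PYHIN medians are −0.74 and −1.16, and Ifi202b is the far point at 6.38 and 4.69.

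Genes with the most similar pattern were sought for the member of widest range and the member of highest mean signal, by the root mean square difference between profiles centred on their own mean over 4 arrays. For Ifi202b these were Il2 (0.51), Mreg (0.55), Cxcl10 (0.63), Il1r2 (0.71) and Plau (0.74). Il2, the closest, read 2.08 and 9.78 in wild type and 2.30 and 6.47 in Tilcara, with stimulated wild type highest as for Ifi202b. For Mndal they were Mavs (0.022), H2-T23 (0.025), Galnt4 (0.028), C430042M11Rik (0.036) and Ccdc93 (0.043). With 4 points per profile such likeness is easily met, and it is given as a description.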

How the data were processed

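The authors deposited 1 table of log2 signals for 41345 probe sets and 4 arrays, made with RMA per the submitters' processing notes; software version and genome build: not given in the sources used here. Since RMA forces the arrays to 1 distribution, a change in total RNA per cell is not visible. Names came from the platform annotation (23521 probe sets with 1 symbol, 1814 with several, 16010 with none), list symbols were updated through RefSeq, and the brightest probe set stood for a gene.

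The members and gene lists were chosen with earlier results of these data known. Each comparison is a difference of log2 signals, counted from 2-fold; with 1 array per group no test was made, and the number of arrays limits precision. The counting was tested on simulated data with changes well past the threshold, small noise and no signal floor. That checks the arithmetic only, not counts that rest on low signals or on noise between single arrays. Named were all members, all measured cluster genes, 5 flanking genes per side, up to 4 genes of each pathway list that differed most by at least 2-fold in a comparison, and the 5 genes of nearest profile. Any other pathway gene and the cell type markers were picked with their values known.

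The 9 alternatives covered scaling (median centring, cyclic loess in limma 3.58.1), probe set choice, low signals and threshold. Ranks and list counts with values raised to the floor were added after seeing the data. Promoter windows were aligned globally with Biopython 1.88. Tables were handled with Python 3.11.15 and pandas 2.3.3. Protein sequences were not used here.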

Additional observations from a re-analysis of the deposited data

Results flagged for a closer look

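In 3 cluster genes the difference of stimulated minus non-stimulated signal had opposite signs in the genotypes, each between single arrays and not tested. Ifi207 had 1.22 in wild type and −0.40 in Tilcara. Ifi203-ps, a pseudogene, had 0.17 and −0.98. Ifi205 had 0.49 and −0.022. All 3 stayed below the signal floor in all 4 arrays, so none of these signs rests on a signal above it.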

How the results depend on the processing

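Under the 9 alternatives, 114 of 125 counts and medians of the members stayed within 1.5 times (counts) or 0.2 on the log2 scale (medians), and no single-member value that passed 2-fold changed sign. Each measured member has 1 probe set of its own. The mean over probe sets and the probe set of widest range therefore had to return the reported values, and these are part of the 114. The median for stimulated Tilcara against wild type was close to 0 and had no stable sign, at 0.03 as reported and −0.01 under cyclic loess. At a 3-fold threshold, 1 member was lower in wild type and 1 in Tilcara, and 0 were higher in Tilcara either without stimulation or in the difference of responses. With values raised to the floor, 0 members were higher in that difference, through Ifi208. At 1.5-fold, 2 members were lower in stimulated Tilcara than in stimulated wild type, Ifi202b and Ifi205, and Ifi205 lay below the floor in every array. Using probe sets of several symbols too, the medians were −0.63 in wild type, −0.88 in Tilcara and −0.23 for stimulated Tilcara against wild type. Over the members that reached the floor they were −1.02 and −1.20 for both responses, a change that follows from leaving out Ifi204 and Ifi205.

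Of 180 values of single members, 164 moved by less than 0.2, a number that again includes the values that could not change. Apart from values raised to the floor, those that moved more were Mndal under cyclic loess (−0.96 in wild type, −1.36 in Tilcara) and Ifi204 through its shared probe set (−0.42 in wild type). Under both scalings the 7 cluster genes above the floor kept their direction in all 5 comparisons, except Ifi214 between non-stimulated genotypes (−0.014, and 0.042 with median centring). No paired analysis was possible because each group has 1 array.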

Other observations

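In the cluster, 7 genes (Ifi203, Ifi206, Ifi207, Ifi208, Ifi213, Ifi214 and Mndal) held the same 9 letters, GAAATCGAA, as a match to GAAANNGAA, while Ifi205 and Ifi211 had GAAATTGAA. Mndal had a further match, GAAAGAGAA, in its other window, and Ifi205 a further match, GAAAGTGAA, after its start, both on the opposite strand. This stretch was singled out after the matches were seen. On either strand it occurred in 30 of the 32851 RefSeq promoter windows (0.0913%), so 23 windows belong to genes outside the cluster, and 12 of those genes were measured above the signal floor.

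Of these 12 genes, 3 were at least 2-fold lower after stimulation in wild type and 1 was higher, with the same counts in Tilcara. Over all genes the shares were 15.9% lower and 13.4% higher in wild type and 14.3% and 11.9% in Tilcara. Ddx58, which encodes the RNA sensor RIG-I, read 7.47 and 3.85 in wild type and 7.90 and 4.06 in Tilcara without and with stimulation. Shisa5, a p53-induced gene, read 9.11 and 6.27 in wild type and 9.21 and 7.36 in Tilcara. Pnrc1, a nuclear receptor coactivator gene, differed by −1.15 and −1.61. Dgkh, for a diacylglycerol kinase, was higher, by 2.13 and 2.61. Of the 4 cluster genes with this stretch above the floor, 3 were at least 2-fold lower in wild type and 4 in Tilcara. Of the cluster genes above the floor without it, Ifi209 (−3.90 and −3.45) and Aim2 (−1.30 and −1.23) were also lower. Ifi202b, which lacks it too, was higher (6.38 and 4.69). These are counts of letters and signals side by side, and no link between them was tested.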
